A study of Macaca mulatta with 9 samples.

Results

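A set of 10 genes of growth factor and nutrient sensing was followed in whole blood RNA: the receptors IGF1R and INSR, the kinase MTOR with its partners RPTOR and RICTOR, the brake on it formed by TSC1 and TSC2, the energy-sensing kinase PRKAA1, and the transcription factors FOXO1 and FOXO3. They were taken by name, and all 10 are among the 24371 genes of the deposited table. The blood came from 9 rhesus macaques (Macaca mulatta) of WT genotype, assigned at random to 3 groups of 3 animals. The first group received PBS, the vehicle, and is called PBS here; the sample descriptions name these animals Old. The second group received extracellular vesicles, small membrane particles that cells release, labelled Evs-FBMSC (FBMSC_EV), and the third received vesicles labelled Evs-ABPC (ABPC_EV), which the series title ties to antler blastema progenitor cells. Whole blood and WT genotype are common to all groups, and every animal was injected. The labels give no dose, age, duration of treatment or time of bleeding. No animal gave more than 1 library, and the 3 animals of a group served as its replicates.

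Insulin and insulin-like growth factors bind the receptor tyrosine kinases INSR and IGF1R, which act through PI3K and AKT. AKT switches off the TSC1-TSC2 complex, so that the small GTPase RHEB can activate mTOR complex 1, and it holds FOXO factors out of the nucleus, where they would otherwise drive stress resistance, cell cycle arrest and catabolic genes. AMPK, whose catalytic subunit is encoded by PRKAA1 or PRKAA2, opposes mTOR complex 1 when energy is short. In blood these genes act in leukocytes and in erythroid precursors alike, and much of their regulation is by phosphorylation, which RNA levels do not show.

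In short, 9 of 9 tested genes of the set rose with ABPC_EV against PBS as deposited, as did 90.9% of all tested genes. Of the 9, IGF1R reached the minimum value for testing in 0 PBS, 1 FBMSC_EV and 3 ABPC_EV libraries, so its entry rested on that difference. Without the filter on low values 9 of 10 genes rose, beside 47.9% of all 24371 genes. The latter include the genes too low to be tested, so the 90.9% is the like share for this set. After a scaling that sets the middle gene level, 0 of 9 passed the test, and FOXO3, IGF1R and RPTOR had the opposite sign. The ratio of FOXO1 to FOXO3, which no scaling of a library alters, was highest in the 3 ABPC_EV animals. Its exact permutation p was 0.1 against either other group, the smallest possible, and 0.5 after adjustment over 15 ratio tests. Values were read as per-million values, which sum to 1000000 in a library, and again after median-ratio scaling. That scaling divides each library by the median ratio of its genes to their geometric means, over the 13350 genes above 0 in every library, so that the middle gene has the same level in all libraries. Globin RNA (HBB, HBA and HBA1) took a different share of the values in each group: 88.2 to 92.7% under PBS, 82.3 to 87.6% under FBMSC_EV and 70.9 to 82.4% under ABPC_EV. Size factors ran from 0.330 to 0.767, from 0.957 to 1.21 and from 1.52 to 2.52 in the same order, and the median of the 10596 tested genes stood at a log2 fold change of 1.41 for ABPC_EV against PBS, 0.70 for FBMSC_EV against PBS and 0.71 for ABPC_EV against FBMSC_EV before scaling, and at 0.00, 0.02 and -0.02 after it. The reads recovered from the table, without 6 genes that gave none (the 3 globins among them), numbered 2850285 to 4426962 under PBS, 5128811 to 6373037 under FBMSC_EV and 6469304 to 7774754 under ABPC_EV. Summed over 36 erythroid genes in the table, scaled values spanned 1157020 to 2819250 under PBS, 688848 to 919523 under FBMSC_EV and 300383 to 545182 under ABPC_EV, and those of 17 T cell genes spanned 158 to 247, 133 to 306 and 202 to 454. Of 7 blood cell lists 0 genes passed the test after scaling in any comparison, and the scaled list medians for ABPC_EV against PBS were -1.43 (erythroid), -0.58 (neutrophil), -0.51 (B cell), -0.07 (platelet), 0.13 (monocyte), 0.41 (cytotoxic and NK) and 0.46 (T cell). No gene of these lists was at 0 in any library. Their part in the values below was not tested, and in bulk blood fewer cells of a type and less RNA per cell cannot be told apart.

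Among the 10 genes, FOXO3 was the most abundant in all 3 groups and INSR the least. As deposited, the per-million value of FOXO3 averaged 9.44 ± 1.28 in PBS animals, 14.98 ± 1.90 with FBMSC_EV and 18.8 ± 1.14 with ABPC_EV (SD, n = 3 for every mean here), and it stood above the next gene in each of the 3 libraries of every group. TSC2, RICTOR and FOXO1 followed in ranks 2 to 4. Under PBS they averaged 2.17 ± 0.906, 2.14 ± 0.732 and 2.01 ± 0.541, and neighbours in this order kept it in 2 of 3 libraries, so their ranks did not differ beyond their spread. MTOR, RPTOR, TSC1 and PRKAA1 formed the next tier, from 0.812 ± 0.423 for MTOR to 1.21 ± 0.652 for RPTOR under PBS. IGF1R came 9th and INSR 10th in every group. These levels are comparable between genes only in so far as the deposited values are divided by a gene length: 1290 recovered reads stood behind the per-million value of 8.52 of FOXO3 in PBS animal 1, and 439 reads behind that of 1.73 of RICTOR, so the divisor did differ between genes. The number of recovered reads per gene and library ran from 27 for INSR in PBS animal 2 to 2256 for FOXO3 in ABPC_EV animal 1, so INSR and IGF1R are the least precisely counted.

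**Figure D1:**
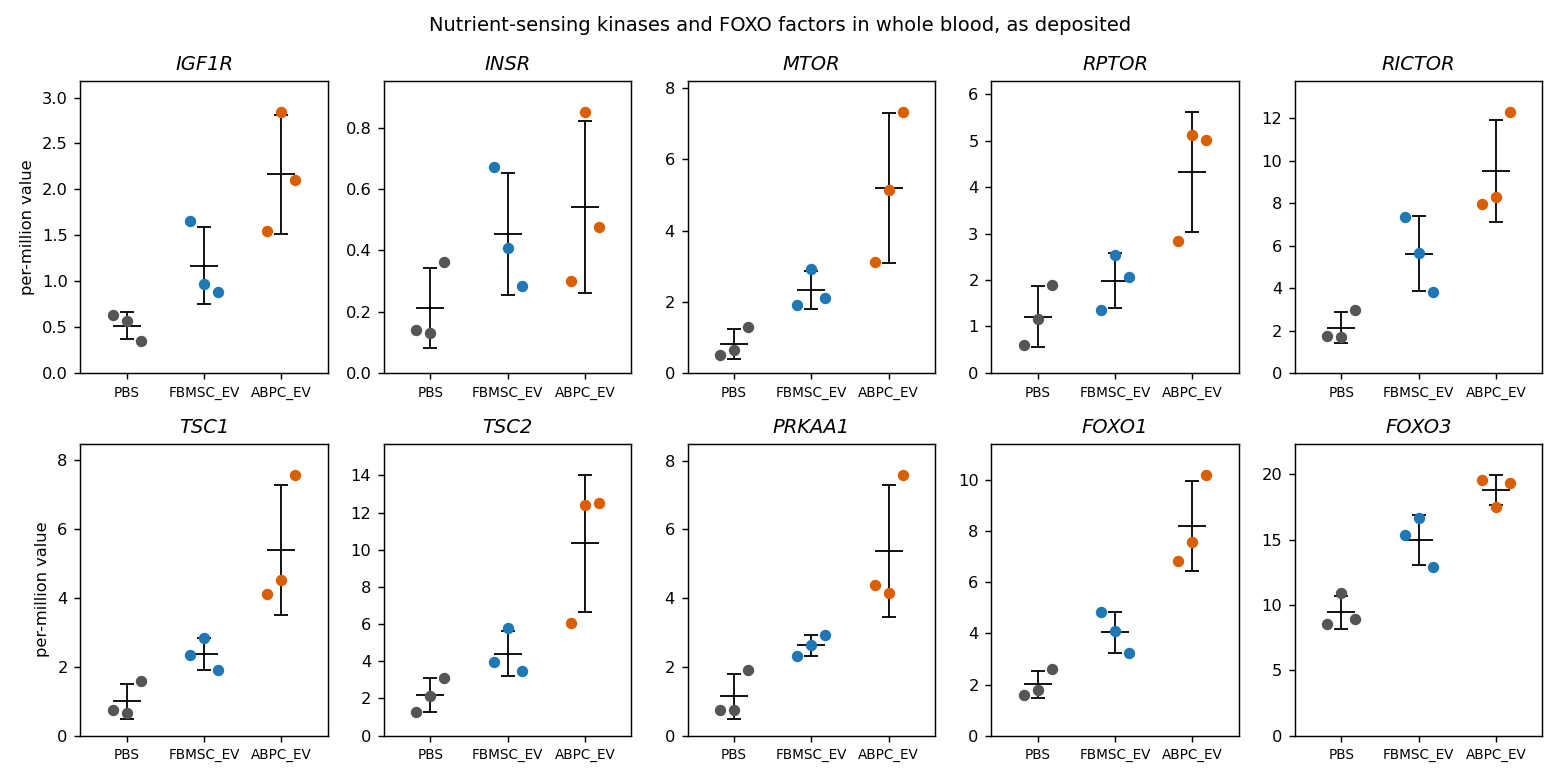
Per-million values as deposited (vertical axes, linear from 0) of the 10 genes in the 9 libraries, by group; points are animals, bars the mean ± SD of 3. The ABPC_EV points lie above all PBS points in every panel except INSR, an order that is not kept after median-ratio scaling except for MTOR.

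IGF1R, the receptor for insulin-like growth factors, was listed at 0.626, 0.566 and 0.351 (per-million values, as for every listed value below) in the 3 PBS animals, at 1.65, 0.966 and 0.885 under FBMSC_EV and at 1.55, 2.84 and 2.1 under ABPC_EV. All PBS animals were below all treated ones, and the vesicle groups overlapped. Scaled, the values were 1.90, 1.2 and 0.458 under PBS, 1.68, 0.801 and 0.925 under FBMSC_EV and 1.02, 1.31 and 0.836 under ABPC_EV, and PBS then held both the highest and the lowest animal. As deposited IGF1R rose by 1.05 ± 0.29 (log2, SE) for ABPC_EV against PBS (limma, Benjamini-Hochberg adjusted p = 0.00212), but the gene reached a value of 1, the minimum for testing, in 0 PBS libraries, 1 FBMSC_EV library and 3 ABPC_EV libraries, so its entry into the test already rested on that difference. After scaling the difference was -0.04, with a 95% interval of -0.63 to 0.55 (limma, adjusted p = 0.969).

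INSR, the insulin receptor, was listed at 0.141, 0.129 and 0.361 under PBS, 0.671, 0.406 and 0.284 under FBMSC_EV and 0.299, 0.851 and 0.476 under ABPC_EV, with overlap in all comparisons. The scaled values, 0.428, 0.275 and 0.471, then 0.681, 0.337 and 0.296, and then 0.196, 0.393 and 0.189, overlapped as well. INSR reached a value of 1 in 0 of 9 libraries and was the 1 gene of the 10 left out of the tests. Without the filter on low values its difference for ABPC_EV against PBS was 0.34 as deposited (limma, adjusted p = 0.139) and -0.14 after scaling (limma, adjusted p = 0.778). IGF1R exceeded INSR in 8 of 9 libraries; in PBS animal 3 their ratio was 0.972.

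MTOR encodes the kinase shared by mTOR complexes 1 and 2. It was listed at 0.495, 0.650 and 1.29 under PBS, 1.92, 2.93 and 2.12 under FBMSC_EV and 3.11, 5.14 and 7.32 under ABPC_EV, 3 ranges that did not overlap. After scaling the values were 1.5, 1.38 and 1.69 under PBS, 1.95, 2.43 and 2.21 under FBMSC_EV and 2.05, 2.37 and 2.91 under ABPC_EV. On that scale both vesicle groups still lay wholly above PBS while overlapping each other, and no other of the 10 genes stood apart from PBS. The scaled difference was 0.44 (95% interval 0.10 to 0.78) for ABPC_EV and 0.34 (-0.00043 to 0.68) for FBMSC_EV against PBS. Neither passed the adjustment over all genes (limma, adjusted p = 0.341 and 0.998), and 6.45% and 4.96% of tested genes also lay wholly above PBS in these comparisons, with 7.51% and 4.71% wholly below.

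RPTOR encodes Raptor, the substrate-recruiting subunit of mTOR complex 1, and RICTOR the subunit that defines complex 2. RPTOR was listed at 0.591, 1.16 and 1.89 under PBS, 1.36, 2.53 and 2.07 under FBMSC_EV and 2.84, 5.11 and 5.02 under ABPC_EV, so that PBS animal 3 was above FBMSC_EV animal 1 and below every ABPC_EV animal. Its scaled values, 1.79, 2.46 and 2.47 under PBS, 1.38, 2.1 and 2.16 under FBMSC_EV and 1.87, 2.36 and 1.99 under ABPC_EV, overlapped throughout. RICTOR was listed at 1.73, 1.71 and 2.99 under PBS, 7.35, 5.66 and 3.82 under FBMSC_EV and 7.94, 8.31 and 12.3 under ABPC_EV, in ranges that did not overlap. Scaled, RICTOR stood at 5.24, 3.63 and 3.90, at 7.46, 4.69 and 3.99, and at 5.22, 3.84 and 4.88 in the same order, with FBMSC_EV animal 1 above the rest and overlap everywhere. As deposited RPTOR rose by 1.28 ± 0.33 and RICTOR by 1.74 ± 0.36 for ABPC_EV against PBS (limma, adjusted p = 0.00137 and 0.000426). After scaling the differences were -0.07 (95% interval -0.46 to 0.31) and 0.11 (-0.40 to 0.62).

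TSC1 (hamartin) stabilises TSC2 (tuberin), the subunit that switches RHEB off. TSC1 was listed at 0.757, 0.665 and 1.58 under PBS, 2.34, 2.84 and 1.91 under FBMSC_EV and 4.12, 4.51 and 7.57 under ABPC_EV. TSC2 was listed at 1.28, 2.15 and 3.09, at 3.96, 5.77 and 3.48, and at 6.08, 12.4 and 12.5. Neither gene's groups overlapped on this scale, and PBS animal 3 was the highest PBS animal for both. TSC2 rose by 1.82 ± 0.37 for ABPC_EV against PBS and TSC1 by 1.67 ± 0.33 (limma, adjusted p = 0.000426 and 0.000417). Scaled, TSC1 stood at 2.29, 1.42 and 2.06, at 2.38, 2.36 and 2.0, and at 2.71, 2.08 and 3.01 under PBS, FBMSC_EV and ABPC_EV, and TSC2 at 3.88, 4.57 and 4.03, at 4.02, 4.79 and 3.63, and at 4.0, 5.72 and 4.98. All groups then overlapped, with differences for ABPC_EV against PBS of 0.30 (95% interval -0.08 to 0.69) for TSC1 and 0.18 (-0.20 to 0.57) for TSC2. In the RefSeq table TSC2 overlaps PKD1, which was listed at 0.448 to 5.83. INSR, FOXO1, FOXO3, MTOR and RICTOR also overlap genes of the deposited table, listed at up to 0.262, 0.667, 1.205, 0.160 and 1.22 in this order. Whether the counting used strand is not given in the sources used here. Reads of these genes and their neighbours may therefore not be cleanly separated.

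PRKAA1 encodes the alpha 1 catalytic subunit of AMPK. Its listed values were 0.759, 0.753 and 1.91 under PBS, 2.32, 2.63 and 2.91 under FBMSC_EV and 4.38, 4.16 and 7.58 under ABPC_EV, again without overlap. The scaled values were 2.30, 1.60 and 2.49, then 2.35, 2.18 and 3.04, then 2.88, 1.92 and 3.01, and all groups overlapped. PRKAA1 rose by 1.58 ± 0.33 for ABPC_EV against PBS as deposited (limma, adjusted p = 0.000446), and the scaled difference was 0.20 (95% interval -0.23 to 0.63).

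FOXO1 and FOXO3 are forkhead transcription factors that AKT phosphorylates. FOXO1 was listed at 1.60, 1.8 and 2.62 under PBS, 4.83, 4.10 and 3.23 under FBMSC_EV and 6.83, 7.59 and 10.2 under ABPC_EV, without overlap. FOXO3 was listed at 8.52, 10.9 and 8.89 under PBS, 15.4, 16.7 and 12.9 under FBMSC_EV and 19.6, 17.5 and 19.4 under ABPC_EV, also without overlap. As deposited FOXO1 rose by 1.61 ± 0.34 for ABPC_EV against PBS (limma, adjusted p = 0.000439) and FOXO3 by 0.93 ± 0.38 (adjusted p = 0.0235), which is 0.48 below the 1.41 of the median gene. The FOXO3 call was lost without ABPC_EV replicate 3 (0.91, limma adjusted p = 0.0691) and in a fit of the ABPC_EV and PBS libraries alone (adjusted p = 0.0639).

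After scaling FOXO1 overlapped in all comparisons, at 4.85, 3.83 and 3.42 under PBS, 4.90, 3.40 and 3.37 under FBMSC_EV and 4.49, 3.5 and 4.05 under ABPC_EV, with a difference of 0.00 for ABPC_EV against PBS and a 95% interval of -0.42 to 0.42. FOXO3 stood at 25.8, 23.2 and 11.6 under PBS, 15.6, 13.8 and 13.5 under FBMSC_EV and 12.9, 8.08 and 7.69 under ABPC_EV. PBS animals 1 and 2 were the highest, PBS animal 3 was below all FBMSC_EV animals and below ABPC_EV animal 1, and every ABPC_EV animal was below every FBMSC_EV animal, an order that 6.8% of the tested genes also showed, with 4.23% in the opposite order. The scaled FOXO3 difference was -0.97 (SE 0.31, 95% interval -1.65 to -0.28) for ABPC_EV against PBS, -0.40 for FBMSC_EV against PBS and -0.57 for ABPC_EV against FBMSC_EV, and none passed the adjustment (limma, adjusted p = 0.291, 0.998 and 0.934). Leaving out PBS replicate 3 moved the first of these to -1.30, with an adjusted p of 0.0500045 in limma, just above the threshold of 0.05. Scaled values for ABPC_EV against PBS were lower for 35 of 36 tested erythroid genes (median -1.43), 12 of 13 neutrophil genes (-0.58) and 8 of 10 B cell genes (-0.51). They were lower for 7 of 11 platelet, 4 of 11 monocyte, 1 of 11 cytotoxic and NK and 1 of 17 T cell genes. For FBMSC_EV against PBS they were lower for 33 of 36 erythroid (-0.49), 10 of 10 B cell (-0.81) and 11 of 11 platelet genes (-0.59). In that comparison 6 of 13 neutrophil, 7 of 17 T cell, 2 of 11 cytotoxic and NK and 1 of 11 monocyte genes were lower. When the erythroid genes were removed from the deposited values and the remainder was brought back to a sum of 1000000, the FOXO3 difference for ABPC_EV against PBS went from 0.93 to -0.26 and the median of all genes from 1.41 to 0.73. Relative to the median gene FOXO3 stood at -0.99 with those genes removed, at -0.97 after median-ratio scaling and at -0.48 as deposited. Rescaling a library moves a gene and the median gene alike. These values can therefore differ only through the 1 added to each value before the log2 and the genes left out, and the removal tests no cause. The part of erythroid RNA, or of RNA from any other cell type, in the FOXO3 values was not tested.

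**Figure D2:**
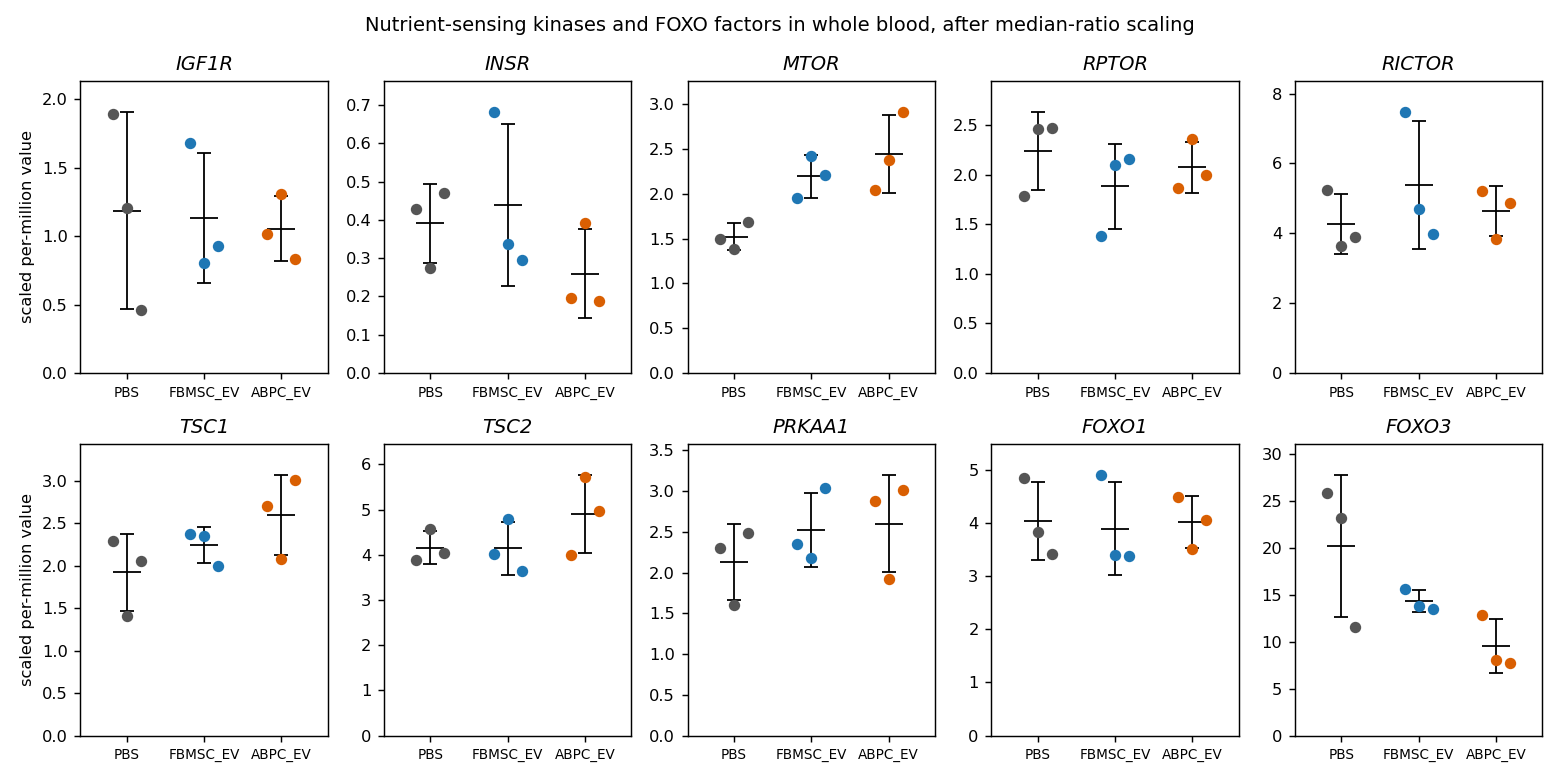
The same 10 genes after median-ratio scaling (vertical axes, scaled per-million value, linear from 0); points are animals, bars the mean ± SD of 3. MTOR is the 1 gene with both vesicle groups wholly above PBS, and FOXO3 runs from 11.6 to 25.8 under PBS to 7.69 to 12.9 under ABPC_EV.

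As deposited, 9 of 9 tested genes of the set rose for ABPC_EV against PBS, and of these FOXO3, IGF1R and RPTOR turned negative after scaling. IGF1R is in this count although its entry into the test rested on the ABPC_EV values. It reached 1 in 0 PBS and 3 ABPC_EV libraries. Without the filter on low values 9 of 10 genes rose, beside 47.9% of all genes, which then include those too low to be tested. The count of 9 of 9 is the one to set against the filtered table, in which 90.9% of tested genes were called higher and 0.0566% lower in the same comparison. The set's median difference was 1.61 and that of all genes 1.41. Of the 10 genes, 9 had every ABPC_EV animal above every PBS animal, as had 85.4% of tested genes, while 0.0661% lay wholly below PBS. Relative to the median gene the set was spread on both sides, from TSC2 at 0.40, RICTOR at 0.33 and MTOR at 0.32 above it to RPTOR at -0.14, IGF1R at -0.37 and FOXO3 at -0.48. The fits used log2(value + 1), which understates the change of low genes, so these offsets depend in part on the level of a gene. After scaling the same genes, in this order, stood at 0.18, 0.11, 0.44, -0.07, -0.04 and -0.97 from the median gene.

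For FBMSC_EV against PBS as deposited, 0 of 9 genes passed (limma; 0.255% of tested genes were called higher and 0.00944% lower), and 8 of 10 lay wholly above PBS, against 50.9% of tested genes wholly above and 0.0849% wholly below. An unadjusted p under 0.05 was reached by 6 of the 9 genes and by 43.8% of all tested genes. The differences ran from 0.46 ± 0.33 for RPTOR to 1.06 ± 0.36 for RICTOR, with a median of 0.77 against 0.70 for all genes. This count depended on 1 library, as did the count over the whole table. Without PBS replicate 3, RICTOR, MTOR, PRKAA1, TSC2, TSC1 and FOXO1 passed, 6 in all, as did 43.3% of all tested genes in the higher direction. With the ABPC_EV libraries left out of the fit, 2 passed (RICTOR and MTOR) of 8 tested, beside 31.5% of all genes.

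For ABPC_EV against FBMSC_EV as deposited, 0 of 9 passed (limma; 0.585% of tested genes were called higher and 0.0566% lower), and 8 of 10 lay wholly above FBMSC_EV, against 50.5% of tested genes wholly above and 0.17% wholly below. An unadjusted p under 0.05 was reached by 6 of the 9, and by 48.3% of all tested genes. The largest difference was that of TSC2, 1.03 ± 0.37 (limma, adjusted p = 0.0737), and the smallest that of FOXO3, 0.32 ± 0.38, and the set's median was 0.82 against 0.71 for all genes. Here 6 of the 9 genes passed without ABPC_EV replicate 1, beside 45.6% of all tested genes called higher. Without PBS replicate 3, 5 passed (TSC2, FOXO1, TSC1, RPTOR and MTOR), beside 25.6% of all tested genes.

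After scaling 0 of 9 genes passed in any of the 3 comparisons (limma; 0% of tested genes were called in each). At an unadjusted p under 0.05 there were 2 for ABPC_EV against PBS (FOXO3 and MTOR) and 0 in each of the others, beside 10.2%, 4.83% and 5.36% of all tested genes for ABPC_EV against PBS, FBMSC_EV against PBS and ABPC_EV against FBMSC_EV. In the same order, limma-voom on the recovered reads called 0 genes of the set, with 2, 1 and 0 under an unadjusted 0.05, beside 9.33%, 4.12% and 6.23% of all genes. The median difference of the set was 0.11, -0.00077 and 0.05, beside 0.00, 0.02 and -0.02 for all genes. The 95% interval reached to either side of the estimate by 0.34 for MTOR, 0.38 for TSC2 and RPTOR and 0.39 for TSC1, but 0.59 for IGF1R and 0.69 for FOXO3. An estimate smaller than its width could not pass the test. These widths are not adjusted over all genes, so a larger estimate need not pass either. For ABPC_EV against PBS, FOXO3 at -0.97 and MTOR at 0.44 did not (limma, adjusted p = 0.291 and 0.341). The 2 comparisons with PBS use the same PBS libraries and are not independent of each other.

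**Figure D3:**
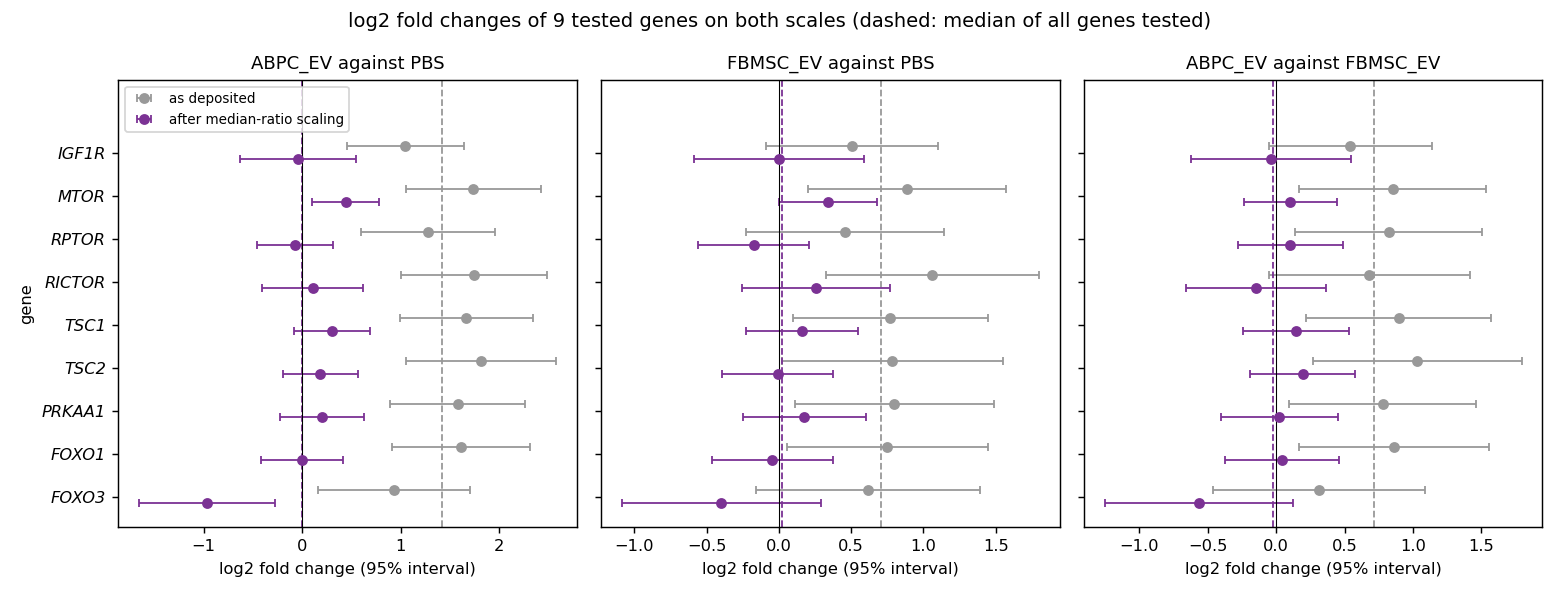
Differences in log2(value + 1) of the 9 tested genes (rows) in the 3 comparisons (panels), as deposited in grey and after median-ratio scaling in purple, with 95% limma intervals; dashed lines mark the median of all tested genes. As deposited the genes scatter around a median of 1.41 in the first panel, and after scaling the FOXO3 and MTOR intervals there do not reach 0, with FOXO3 on the negative side.

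Ratios between genes of the same library do not depend on how the library is scaled. FOXO1 over FOXO3 was 0.188, 0.165 and 0.295 under PBS, 0.314, 0.246 and 0.25 under FBMSC_EV and 0.349, 0.433 and 0.527 under ABPC_EV. Every ABPC_EV animal was above every animal of the other groups, whereas PBS animal 3 exceeded FBMSC_EV animals 2 and 3. The ratio was 2.06-fold higher under ABPC_EV than under PBS and 1.60-fold higher than under FBMSC_EV (exact permutation test, two-sided, p = 0.1 in both, adjusted over 15 ratio tests 0.5); 0.1 is the smallest p that 3 animals against 3 allow. With 1 library left out in turn the log2 difference of ABPC_EV from PBS, 1.04 in all animals, ran from 0.87 to 1.29. FOXO3 made up 46.8 ± 9.75% of the summed value of the 10 genes under PBS, 37.5 ± 0.806% under FBMSC_EV and 27.7 ± 6.06% under ABPC_EV, and in ABPC_EV its highest share, 34.5%, was just under its lowest in PBS, 35.6%.

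RICTOR belongs to complex 2 and RPTOR to complex 1, but only their RNA was measured, not the complexes. The ratio of RICTOR to RPTOR was 2.93, 1.48 and 1.58 under PBS, 5.41, 2.23 and 1.85 under FBMSC_EV and 2.79, 1.62 and 2.45 under ABPC_EV. FBMSC_EV animal 1 was the highest, and all groups overlapped. The ratio of TSC1 to TSC2 was 0.590, 0.310 and 0.511 under PBS, 0.591, 0.492 and 0.551 under FBMSC_EV and 0.677, 0.363 and 0.604 under ABPC_EV, again with overlap. MTOR over PRKAA1, the growth kinase over the energy-stress kinase, was 0.652, 0.863 and 0.678 under PBS, 0.828, 1.11 and 0.726 under FBMSC_EV and 0.711, 1.24 and 0.966 under ABPC_EV. It was 1.31-fold higher under ABPC_EV than under PBS (exact permutation p = 0.2, adjusted 0.75), with 1 ABPC_EV animal below 1 PBS animal. The ratio of IGF1R to INSR was 4.43, 4.39 and 0.972 under PBS, 2.47, 2.38 and 3.12 under FBMSC_EV and 5.18, 3.34 and 4.42 under ABPC_EV. ABPC_EV animals were all above FBMSC_EV animals here (1.61-fold, exact permutation p = 0.1, adjusted 0.5), but PBS animal 3 was below and PBS animals 1 and 2 above all FBMSC_EV animals, and without PBS replicate 3 the log2 difference of ABPC_EV from PBS turned from 0.67 to -0.05.

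**Figure D4:**
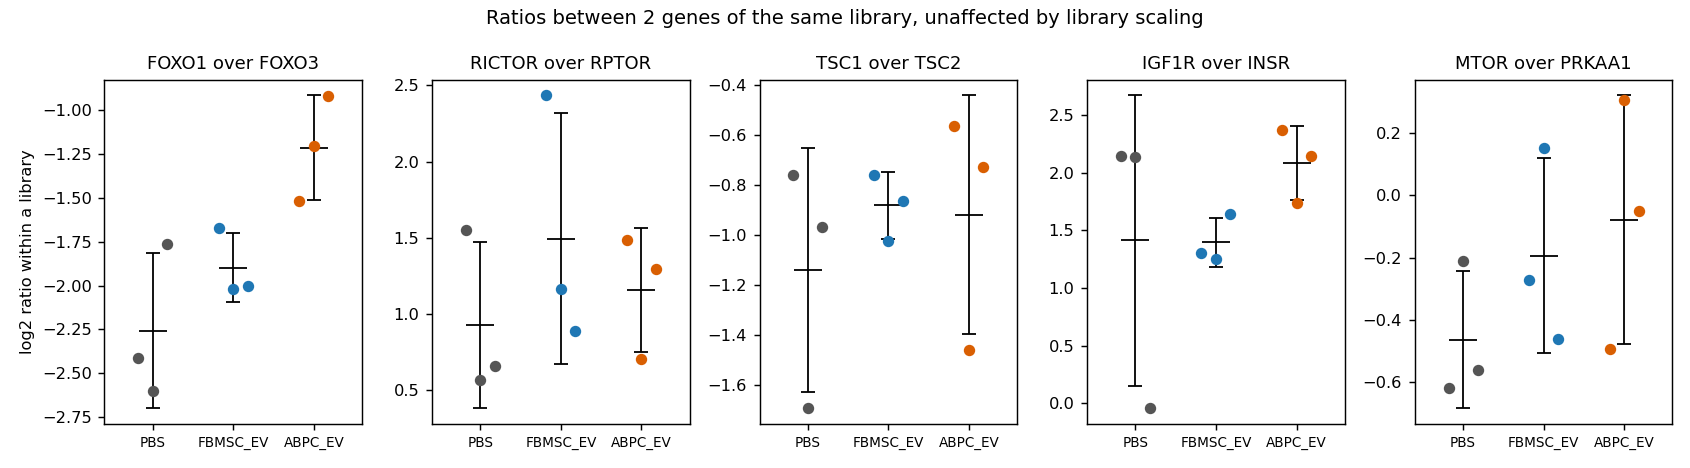
log2 ratios of 5 gene pairs within each library (vertical axes, not starting at 0); points are animals, bars the mean ± SD of 3 log2 ratios. FOXO1 over FOXO3 is highest in the 3 ABPC_EV animals, and in IGF1R over INSR PBS animal 3 stands far below the rest.

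The wider pathway was read from 9 lists with 129 genes that are not among the 10; 124 are in the table and 112 were tested. As deposited 107 of the 112 rose for ABPC_EV against PBS, beside 90.9% of all tested genes. For FBMSC_EV against PBS 0 passed, beside 0.255% of all tested genes called higher, and 65 had an unadjusted p under 0.05 (limma), beside 43.8%. For ABPC_EV against FBMSC_EV 1 passed (0.893%), beside 0.585% of all tested genes called higher. Single libraries moved the counts that passed in the last 2 comparisons together with those of the whole table. For FBMSC_EV against PBS, 65 of 112 passed without PBS replicate 3 (43.3% of all tested genes were called higher there), 9 of 107 without ABPC_EV replicate 2 (6.95%), 3 of 109 when ABPC_EV replicate 1 was left out (3.61%) and 1 of 112 when FBMSC_EV replicate 1 was (105 of 10463 genes). For ABPC_EV against FBMSC_EV, 52 of 109 passed without ABPC_EV replicate 1 (45.6% of all tested genes), 21 of 112 without PBS replicate 3 (25.6%), 4 of 111 without FBMSC_EV replicate 2 (3.89%), 3 of 107 without ABPC_EV replicate 2 (399 of 9979 genes) and 0 of 107 without ABPC_EV replicate 3 (0.485%). The 5 that missed the threshold against PBS were chosen after their values were seen: STRADB (0.42), MXI1 (0.22), GADD45A (0.81), PDK4 (0.54) and RRAGD (0.55). The 1 gene that passed in the last comparison was CCR7, a chemokine receptor of naive lymphocytes whose expression in T cells depends on FOXO1 (2.12 ± 0.46, limma adjusted p = 0.0289). After scaling 0 of 112 passed in each comparison (limma; 11, 6 and 4 had an unadjusted p under 0.05, beside 10.2%, 4.83% and 5.36% of all tested genes), with 47, 65 and 36 positive differences and medians of -0.03, 0.04 and -0.08. The scaled values given below for single genes are thus values that did not pass. Counts that rose refer to ABPC_EV against PBS as deposited, and each stands beside the 90.9% of all tested genes that rose there.

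Upstream of AKT, 17 of 18 adaptors and PI3K subunits were tested. All 17 rose as deposited for ABPC_EV against PBS, and the scaled median was -0.05, from GAB2, a docking adaptor, at -0.51 ± 0.51 (SE) to PIK3R1, the p85 alpha regulatory subunit, at 0.36 ± 0.18. PIK3R1 was also the highest for FBMSC_EV against PBS (0.44 ± 0.18): its scaled mean came to 3.55 ± 0.487 under PBS, 5.15 ± 0.463 under FBMSC_EV and 4.90 ± 1.09 under ABPC_EV. The lowest there was PIK3IP1, an inhibitor of PI3K, at -0.16. In the AKT and GSK3 list 7 genes were tested and all 7 rose as deposited. Their scaled differences against PBS ran from -0.44 for AKT2 to 0.10 for GSK3B under ABPC_EV, and GSK3B stood at 0.10 under FBMSC_EV as well. AKT2 averaged 13.9 ± 0.952 under PBS and 10.1 ± 2.18 under ABPC_EV.

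Around the kinase itself, 7 further subunits of the mTOR complexes were tested and all 7 rose as deposited. PRR5L, a partner of complex 2, had the highest scaled difference for both vesicles, 0.32 for ABPC_EV and 0.65 for FBMSC_EV, and the lowest were PRR5 at -0.07 and AKT1S1, the complex 1 inhibitor PRAS40, at -0.15. RHEB, the GTPase that activates complex 1, and TBC1D7, a further subunit of the TSC complex, both rose as deposited. Scaled they stood at -0.02 and 0.12 under ABPC_EV and at 0.02 and 0.20 under FBMSC_EV.

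Amino acid sensing at the lysosome was represented by 24 tested genes, of which 23 rose as deposited; the scaled median was -0.05. SESN3, a sestrin whose gene FOXO factors activate, was the lowest for ABPC_EV at -0.81 ± 0.32, from 12.7 ± 0.817 under PBS to 7.49 ± 4.18, and NPRL2, a subunit of the GATOR1 complex, was the highest at 0.45 ± 0.20. For FBMSC_EV the ends were NPRL3, the partner of NPRL2, at -0.44 and LAMTOR2, a Ragulator subunit, at 0.31. Of the genes downstream of complex 1, 14 were tested and all 14 rose as deposited. LPIN1, a lipid phosphatase and coregulator, had the highest scaled difference for ABPC_EV (0.78 ± 0.26, from 1.96 ± 0.112 to 4.30 ± 1.85) and TFE3, a lysosomal transcription factor, the lowest (-0.56 ± 0.36). For FBMSC_EV the highest was EIF4EBP3, a translation repressor, at 0.46, and the lowest TFEB at -0.35.

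Around AMPK 8 of 9 tested genes rose as deposited, and STRADB was the exception. STRADB, a pseudokinase that partners the AMPK-activating kinase STK11, had a scaled mean of 114 ± 46.3 under PBS, 48.2 ± 7.01 under FBMSC_EV and 36.0 ± 10.4 under ABPC_EV, and differences from PBS of -1.15 ± 0.36 and -1.59 ± 0.36 for these 2 groups. The highest were PRKAB2, a beta subunit, at 0.37 for ABPC_EV and CAMKK2, a calcium-driven activator of AMPK, at 0.45 for FBMSC_EV. Among 11 other FOXO factors and partners, all of which rose as deposited, FOXO4 was the lowest for both vesicles. Its scaled mean came to 19.2 ± 6.79 under PBS, 14.5 ± 1.01 under FBMSC_EV and 10.2 ± 2.74 under ABPC_EV, with differences from PBS of -0.31 ± 0.30 and -0.82 ± 0.30. EP300, an acetyltransferase of FOXO proteins, was the highest, at 0.18 and 0.19 for ABPC_EV and FBMSC_EV.

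Of 21 tested FOXO target genes, 18 rose as deposited for ABPC_EV against PBS; the list's scaled median was -0.24 with 8 positive, and for FBMSC_EV against PBS 0.10 with 12 positive. MXI1, a MYC antagonist, was the lowest at -1.75 ± 0.31, with scaled means of 58.9 ± 21.3 under PBS, 32.5 ± 0.968 under FBMSC_EV and 16.6 ± 5.57 under ABPC_EV. CCND2, a cyclin that FOXO factors repress, was the highest at 0.71 ± 0.31, from 3.56 ± 0.211 to 6.56 ± 1.69. For FBMSC_EV the ends were CCR7 at -1.46 ± 0.36, with scaled means of 23.7 ± 5.91 under PBS, 8.03 ± 2.26 under FBMSC_EV and 20.9 ± 11.3 under ABPC_EV, and TNFSF10, the death ligand TRAIL, at 0.45 ± 0.45. The TNFSF10 value ran from 0.041 without PBS replicate 3 to 1.05 without PBS replicate 1 (limma, adjusted p = 0.613). PBS replicate 3 bore on the scaled values of this pathway for ABPC_EV against PBS: without it MXI1 (-1.98), STRADB (-1.96) and NPRL3 (-1.08) passed (limma, adjusted p = 0.0317, 0.0338 and 0.0448), 3 of 112 genes, while 140 of 10524 tested genes did so in the table as a whole.

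**Figure D5:**
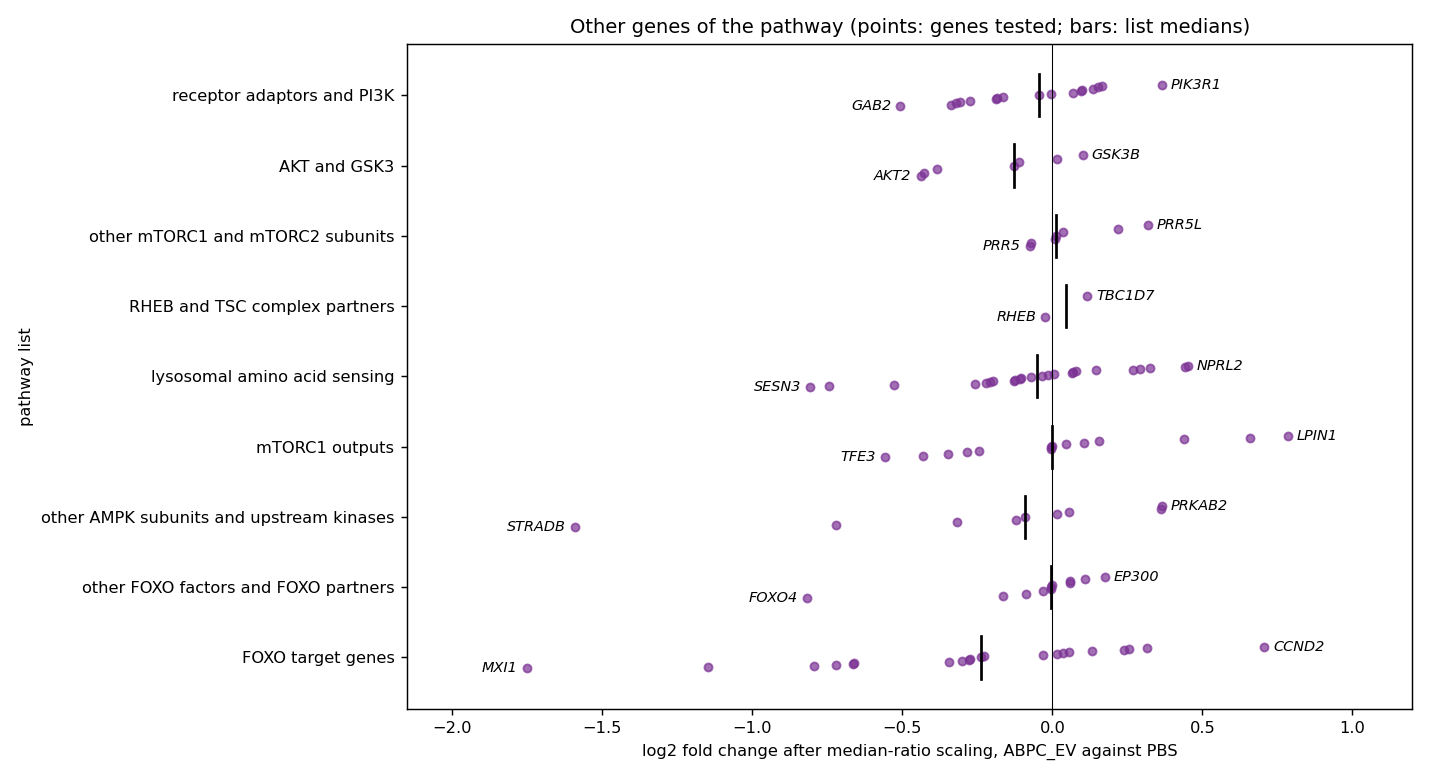
Differences after median-ratio scaling for ABPC_EV against PBS (horizontal axis, log2) of the 112 tested pathway genes in 9 lists; points are genes, bars the list medians, and the ends of each list are named. List medians lie between -0.24 and 0.05, and MXI1 and STRADB are the lowest points.

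Genes whose scaled profiles over the 9 libraries were most like those of 4 members were sought among 9209 tested genes with a symbol. The measure was the root mean square difference of mean-centred log2(scaled value + 1). For FOXO3 these were KEL (0.106), PEX19 (0.121) and UBL5 (0.141). KEL, the Kell blood group antigen and a member of the erythroid list used above, had scaled means of 2.21 under PBS, 1.34 under FBMSC_EV and 0.615 under ABPC_EV, beside 20.2, 14.3 and 9.55 for FOXO3. In proportion KEL fell more steeply than FOXO3. The 1 added before the log2 narrows the range of a low gene, so the closeness of KEL to FOXO3 depends on it. For FOXO1 they were KPNA4 (0.0645), DCP2 (0.0847) and SKIL (0.0870), for RICTOR OSBPL8 (0.0649), QKI (0.0828) and CRKL (0.0970), and for TSC2 TUBB (0.0572), UBAP2L (0.0646) and LMNB2 (0.0648). The FOXO3 neighbours were thus at a greater distance from it than those of the other 3 genes were from theirs.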

How the data were processed

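RNA-seq libraries were made from total RNA of whole blood with a NEBNext Ultra kit and read as paired ends on an Illumina platform, per the labels' protocols; the genome build was Mmul_10, per the submitters' processing notes. The aligner, the counter, the annotation and any use of strand were not given in the sources used here. Values in the deposited table were read, from the values themselves, as the log2 of a per-million value plus 0.5. The per-million values so obtained sum to 1000000. The labels do not state the submitters' unit. All 9 columns were mapped to samples by name and 0 were left over. Groups were taken from the sample titles.

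Values were turned back to the per-million scale, and a second scale divided them by median-ratio size factors over 13350 genes. In R 4.3.3, limma 3.58.1 (trend option on) was fitted to log2(value + 1) on each scale, so fold changes of low genes are understated, with all 9 libraries and group as the only term. The tests covered the 10596 genes that reached 1 in 3 or more libraries, with Benjamini-Hochberg adjustment over all of them and a threshold of 0.05. Read counts were recovered by searching for a divisor per gene that makes its values whole in all libraries (tolerance 0.001): 21545 of 21551 genes (99.972%) came out whole, as did 300 of 300 genes as given and 0 of 300 after perturbation. True read numbers could be a multiple of those recovered. limma-voom on these reads was an alternative, and called 0 genes in each comparison. Ratios between genes were compared by exact permutation tests. The recovery and the fits were tested on simulated data.

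The 10 genes, the pathway and blood cell lists and the tests were chosen with earlier results of these data known. Named pathway genes are, per list, the tested genes with the lowest and the highest scaled difference from PBS for each vesicle; the exceptions are named where they stand. A value for 1 gene that this rule names is not reported here. Alternatives were another pseudocount (0.5), no filter, a filter on scaled values, 2 groups per fit, a replicate block, leaving out each library, removal of the erythroid list, and limma-voom. No coordinates or sequences are given, and neighbouring genes were read from a RefSeq table of another assembly by name.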

Additional observations from a re-analysis of the deposited data

How the results depend on the processing

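As deposited, ABPC_EV against PBS called 8 to 9 of the 9 genes with 1 library left out, and 0 once the erythroid list was removed and the rest rescaled, a setting in which 0 of 10560 genes were called and the set's median was 0.88 beside 0.73 for all genes. FOXO3 there turned to -0.26 (ABPC_EV against PBS), -0.0032 (FBMSC_EV against PBS) and -0.26 (ABPC_EV against FBMSC_EV). Relative to the median gene these were -0.99, -0.42 and -0.57. Removal changed the sum the values share, which moves a gene and the median gene alike, so these offsets test no cause. FBMSC_EV against PBS called 0 to 6 with 1 library left out and 2 with the 2 groups alone, and ABPC_EV against FBMSC_EV called 0 to 6; the cause was not tested. FBMSC_EV against PBS called 41 of 102 tested pathway genes with the 2 groups alone, where 31.5% of all genes were called higher, and up to 65 of 112 with 1 library left out (43.3%), beside 0. After scaling, deviations of same-numbered libraries from their group means correlated between -0.25 and 0.28. Scaling removes any shift of a whole library, so this check cannot show whether replicate numbers pair the animals on the deposited scale. With the replicate block ABPC_EV against FBMSC_EV called 6 of the 9 genes and 28 of 112 pathway genes as deposited, beside 32% of all genes called higher, and no other count of the 9 changed.

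After scaling 0 of the 9 genes were called in every alternative run, while small differences changed sign. IGF1R turned to 0.15 (ABPC_EV against PBS) and 0.20 (FBMSC_EV against PBS) in limma-voom and to 0.016 with a pseudocount of 0.5 (FBMSC_EV against PBS); RHEB turned to 0.010 in limma-voom. With 1 library left out, FOXO1 ran from -0.088 to 0.11 (ABPC_EV against PBS), -0.19 to 0.068 (FBMSC_EV against PBS) and -0.028 to 0.19 (ABPC_EV against FBMSC_EV), and IGF1R from -0.30 to 0.19, -0.27 to 0.23 and -0.15 to 0.14. For FBMSC_EV against PBS, TSC2 ran from -0.096 to 0.065, RHEB from -0.13 to 0.19, PIK3IP1 from -0.32 to 0.0042 and GSK3B from -0.0032 to 0.16. For ABPC_EV against FBMSC_EV, RICTOR ran from -0.31 to 0.075, PRKAA1 from -0.060 to 0.17 and RPTOR from -0.029 to 0.18. For ABPC_EV against PBS, PRR5 ran from -0.30 to 0.23, RHEB from -0.17 to 0.15, GSK3B from -0.0044 to 0.16 and TBC1D7 from -0.055 to 0.25. Log2 ratios ran from -0.64 to 0.14 (RICTOR over RPTOR) and from -0.077 to 0.32 (MTOR over PRKAA1) for ABPC_EV against FBMSC_EV. TSC1 over TSC2 ran from -0.053 to 0.49, -0.016 to 0.45 and -0.21 to 0.23 in the 3 comparisons, and IGF1R over INSR from -0.054 to 1.04 (ABPC_EV against PBS) and -0.74 to 0.35 (FBMSC_EV against PBS). For ABPC_EV against PBS, GAB2 ran from -0.97 to -0.24, SESN3 from -1.17 to -0.44 and TFE3 from -0.85 to -0.31. FOXO3 stayed negative, from -1.30 to -0.76 for ABPC_EV against PBS, and FOXO1 over FOXO3 stayed positive, from 0.87 to 1.29. Depth limits IGF1R and INSR most, with 27 to 157 recovered reads per library, and 3 animals per group limit every permutation test to p = 0.1.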
